A study of Mus musculus with 2 samples.

Results

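The genes described here encode the machinery that imports proteins into mitochondria, and their transcripts were lower by small amounts in muscle of syntaxin 4 transgenic mice than in wild-type muscle for 31 of 35 genes measured. The members were the probe sets whose annotation gives a single gene symbol of the TOM or TIM translocases (symbols Tomm or Timm followed by a digit) or 1 of Samm50, Pam16, Dnajc19, Grpel1, Grpel2, Hspa9, Chchd4, Gfer, Pmpca, Pmpcb, Immp1l and Immp2l. The rule names genes by symbol and uses no measured value, although it was written with earlier results of these data known. It gave 42 of 35556 probe sets and 35 of 19938 genes. No probe set carried Immp2l alone, and the 1 probe set for Timm10b also carries another gene's symbol, so neither gene has a value here.

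The study measured RNA of skeletal muscle from the hindlimbs of male C57BL/6J mice on standard chow, with 1 Affymetrix whole-transcript array for each genotype. One array was from wild-type mice. The other was from mice with a Syn4 transgene that overexpresses syntaxin 4, a SNARE protein of the plasma membrane that takes part in delivering the glucose transporter GLUT4 to the surface of muscle cells. The labels give neither the promoter that drives the transgene, nor the age of the mice, nor how many mice stand behind an array. Each value is a log2 intensity after RMA as deposited, and each difference is the transgenic value minus the wild-type value. With 1 array per group there is no spread between mice, so no difference could be tested and no value has an error. In tissue RNA, fewer cells of a type and less RNA per cell cannot be told apart.

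Nearly all mitochondrial proteins are encoded in the nucleus, made in the cytosol and carried into the organelle. The TOM complex of the outer membrane is the common gate, with receptors that recognise precursors and a pore that lets them through. Behind it the routes part, to the outer membrane through SAM, to the intermembrane space through a disulfide relay, to the inner membrane through TIM22, and to the matrix through TIM23 and an ATP-driven motor, after which peptidases remove the targeting sequences. Skeletal muscle, whose fibres are rich in mitochondria, depends on this traffic to build its respiratory chain.

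The labels could be checked on 2 points. Stx4a, the mouse gene for syntaxin 4, had a log2 intensity of 8.84 in wild type against 12.20 in the transgenic array, a 10.3-fold higher signal in the array labelled transgenic. The 10 muscle fibre markers, which include Ckm, Acta1 and Myh4, were all bright, from 13.19 to 14.44 in wild type and from 13.28 to 14.45 in the transgenic array. Both arrays had the same median over all probe sets, 6.06.

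Of the 35 import genes, 31 were lower and 4 higher in the transgenic array, whereas over all genes 49.6% were lower and 46.9% higher. The median difference of the import genes was -0.14, beside 0.00 over all genes. The differences ran from -0.46 for Tomm5 to 0.19 for Grpel1 and Tomm34, so no import gene reached 1.5-fold (0.58 on the log2 scale) in either direction. Over all genes, 1.19% were lower and 1.76% higher by that size. At the smaller size of 1.2-fold (0.26), 7 import genes were lower and none higher, and over all genes 11.0% were lower and 11.3% higher. These 7 were Tomm5, Gfer, Timm10, Immp1l, Tomm40l, Grpel2 and Timm21. Timm21 (-0.28) lay just inside that limit and Timm50 (-0.26) just outside it. Altogether 23 import genes were lower by at least 0.1, 3 were higher by as much, and 9 lay within 0.1 of no difference. Of all genes, 33.4% were lower by at least 0.1. Most import genes thus lay on the same side of 0, by amounts that many other genes of the array also showed.

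**Figure D1:**
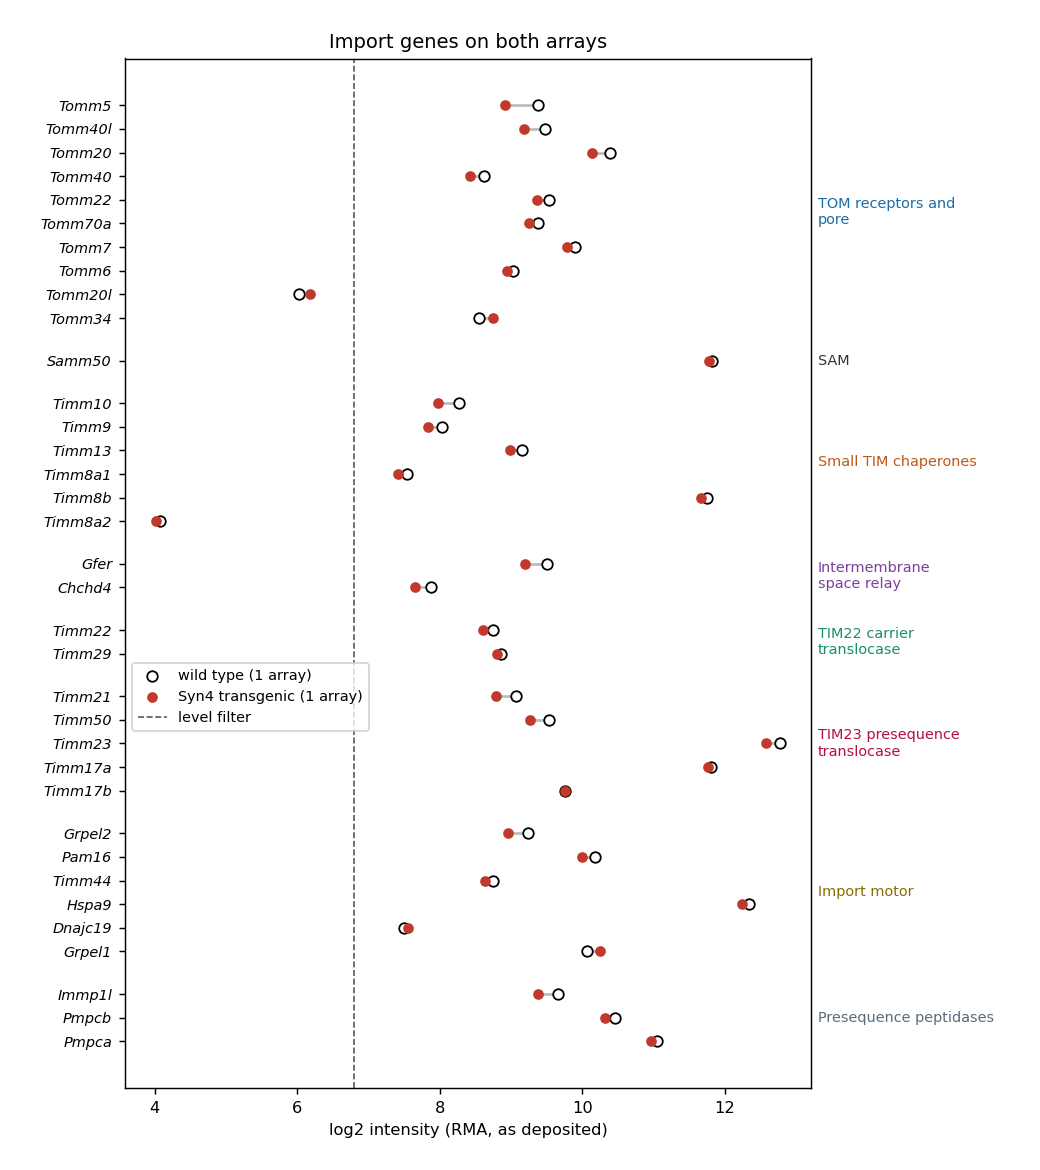
Log2 intensity (x axis, RMA values as deposited) of the 35 import genes on the wild-type array (open circles) and the Syn4 transgenic array (red circles), 1 array each, grouped by role and ordered within a role by difference. The red circle lies left of the open circle for 31 genes, and the dashed line marks the level filter of 6.79, under which Tomm20l and Timm8a2 fall; levels of different genes are not comparable, because probe sets differ in brightness.

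To show what stands upstream of these genes, promoter sequences were taken from a RefSeq promoter table (build GRCm38.p6), which held 30 of the 35 genes. The promoters of Tomm40l, Grpel2, Timm21, Tomm7 and Hspa9 were not used here. Each promoter covers 250 bases before and 50 after a start site. Motifs of 4 factors known to act on nuclear genes for mitochondrial proteins were searched on both strands. The GABPA motif CCGGAAG, to which an ETS family factor binds, was present in 11 of the 30 genes (36.7%), beside 12.9% of 17491 protein-coding genes and 8.86% of all 32851 promoters in the table. The NRF1 motif (GCGC, any 2 bases and GCGC again) reads the same on both strands and was present in 4 genes (13.3%), beside 9.61% of coding genes and 6.23% of all promoters. The YY1 motif AAGATGGCG was present in Immp1l and Timm50, beside 2.14% of coding genes and 1.40% of all promoters. The ERR motif TNAAGGTCA, read by estrogen-related receptors, was present in Timm8b alone, beside 1.19% of coding genes and 1.28% of all promoters. A match is a run of letters and not evidence of binding. The 250 bases before the start site are shown for the lowest gene with each motif (Timm10, Immp1l, Tomm20 and Timm8b) and for Grpel1, a gene that was higher. They are written 5′ to 3′ on the gene's strand, with matches in capitals.
Timm10, chr2:84826771-84827020, + strand: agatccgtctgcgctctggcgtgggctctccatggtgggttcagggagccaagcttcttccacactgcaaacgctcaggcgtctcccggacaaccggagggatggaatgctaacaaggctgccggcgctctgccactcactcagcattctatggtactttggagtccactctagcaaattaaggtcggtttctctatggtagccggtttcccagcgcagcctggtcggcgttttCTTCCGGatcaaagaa
Immp1l, chr2:105904388-105904637, + strand: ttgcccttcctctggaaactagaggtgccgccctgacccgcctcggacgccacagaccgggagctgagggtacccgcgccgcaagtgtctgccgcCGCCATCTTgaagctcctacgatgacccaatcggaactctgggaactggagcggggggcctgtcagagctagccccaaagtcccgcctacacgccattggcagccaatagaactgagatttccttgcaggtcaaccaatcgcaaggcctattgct
Tomm20, chr8:126945922-126946171, - strand: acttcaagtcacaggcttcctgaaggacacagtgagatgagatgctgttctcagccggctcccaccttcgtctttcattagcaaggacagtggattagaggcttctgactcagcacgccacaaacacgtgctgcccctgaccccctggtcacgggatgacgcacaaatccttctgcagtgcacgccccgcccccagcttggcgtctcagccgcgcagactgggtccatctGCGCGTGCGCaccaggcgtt
Timm8b, chr9:50603651-50603900, + strand: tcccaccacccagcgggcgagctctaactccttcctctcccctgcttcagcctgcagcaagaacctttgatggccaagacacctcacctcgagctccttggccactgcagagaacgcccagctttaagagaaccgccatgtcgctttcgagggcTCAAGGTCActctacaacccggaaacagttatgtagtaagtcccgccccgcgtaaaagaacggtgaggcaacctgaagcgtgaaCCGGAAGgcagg
Grpel1, chr5:36464935-36465184, + strand: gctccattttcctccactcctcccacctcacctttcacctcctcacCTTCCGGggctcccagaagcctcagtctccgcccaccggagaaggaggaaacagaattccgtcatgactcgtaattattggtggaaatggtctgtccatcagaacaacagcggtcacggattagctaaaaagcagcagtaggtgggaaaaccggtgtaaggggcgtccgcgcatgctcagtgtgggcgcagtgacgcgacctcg

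In Timm10 the capitals are the GABPA motif on the opposite strand, 16 to 10 bases before the start. In Tomm20 they are the NRF1 motif, 20 to 11 bases before it. The Immp1l match is the YY1 motif on the opposite strand. Timm8b carried first the ERR and then the GABPA motif, and an NRF1 match also lay 19 to 28 bases into its transcript. Grpel1 held the GABPA motif on the opposite strand, 204 to 198 bases before the start. Genes with a GABPA match lay on both sides of 0. Of the 11 import genes with this match 9 were lower, with a median difference of -0.09, and of the 19 without it 17 were lower, with a median of -0.17. Over all measured genes with a promoter in the table, the median was 0.01 for the 2125 with a GABPA match and -0.01 for the 13489 without. The 4 import genes with an NRF1 match (Tomm20, Chchd4, Pam16 and Timm8b) were all lower, with a median of -0.20, and of the 26 without it 22 were lower, with a median of -0.12. The 1636 measured genes with this match had a median of 0.01. Among the import genes, the share of lower genes was high with and without either motif. Over all measured genes it was 46% with and 49.9% without an NRF1 match. For GABPA these shares were 45.6% and 50.1%.

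Of the 10 genes grouped with the outer membrane gate, which include the gene of the cytosolic protein Tomm34, 8 were lower, with a median of -0.14. Tomm5, a small subunit attached to the pore, had the largest difference of all import genes, with 9.38 in wild type and 8.92 in the transgenic array. That is a 1.38-fold lower level, and 2.50% of all genes had a lower difference. The other small pore subunits differed less. Tomm6 was at 9.03 and 8.94, and Tomm7 at 9.90 and 9.79. Tomm40 encodes the pore itself and was at 8.62 in wild type and 8.42 in the transgenic array. Its paralogue Tomm40l was at 9.47 and 9.18, a difference of -0.29 beside the -0.20 of Tomm40, so both pore genes were lower.

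Among the receptors, Tomm20, which recognises cleavable targeting sequences and carries the NRF1 letters shown above, went from 10.38 to 10.14. Tomm22, the central receptor that holds the complex together, was at 9.53 and 9.36. Tomm70a, the receptor for carrier proteins and other hydrophobic precursors that arrive with chaperones, was at 9.37 and 9.25. These 3 differences, -0.24, -0.17 and -0.12, went the same way. The genes above 0 in this group were of other kinds. Tomm34 encodes a cytosolic cochaperone of precursor proteins and was at 8.55 in wild type and 8.74 in the transgenic array. Tomm20l, a paralogue of Tomm20, was at 6.03 and 6.18, under the level filter. Its difference of 0.15 and that of Tomm20 lay 0.39 apart, and the values of Tomm20l rest on a dim signal.

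Samm50, the channel of the SAM complex that inserts barrel-shaped proteins into the outer membrane, was bright and nearly equal, with 11.82 in wild type and 11.77 in the transgenic array. Its difference of -0.05 was among the smallest of the import genes.

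Differences of all 6 small TIM chaperone genes were below 0, with a median of -0.14, but that of Timm8a2 rests on signal too dim to be read. Their products escort hydrophobic precursors across the intermembrane space, Timm9 and Timm10 as one complex, Timm8 proteins with Timm13 as another. Timm10 had the largest difference of the group, -0.30, with 8.27 in wild type and 7.97 in the transgenic array. Its partner Timm9 was at 8.03 and 7.84, a difference of -0.19. In the other complex, Timm13 was at 9.15 and 8.98, Timm8b at 11.75 and 11.66, and Timm8a1 at 7.54 and 7.42. The paralogues Timm8a1 and Timm8b differed by -0.12 and -0.09, which is 0.03 apart. Timm8a2 was at 4.08 and 4.02, under the level filter and under the 95th percentile of olfactory receptor genes (5.47), a mark of dim signal used for orientation.

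The intermembrane space relay had the largest differences as a group, although it has only 2 genes. Gfer encodes the sulfhydryl oxidase that re-oxidises the relay and was at 9.50 in wild type and 9.19 in the transgenic array, a difference of -0.31. Chchd4 encodes the receptor that forms disulfide bonds in incoming proteins, the small TIM chaperones among them, and was at 7.87 and 7.65, a difference of -0.22. Both genes of the relay were therefore lower, Gfer past 1.2-fold and Chchd4 not.

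The translocases of the inner membrane were also lower. Timm22, the channel that inserts metabolite carriers, was at 8.75 in wild type and 8.60 in the transgenic array. Timm29, a subunit of the same complex, was at 8.86 and 8.80. All 5 genes of the TIM23 complex, which passes targeting sequences towards the matrix, were lower, with a median of -0.20. Timm21, which links the complex to the outer membrane gate and to respiratory chain assembly, was at 9.07 and 8.79. Timm50, the receptor that takes over precursors from TOM, was at 9.53 and 9.27. Timm23, the core of the channel, was at 12.77 and 12.57. The other core subunit has 2 alternative forms, and both were close to equal. Timm17a was at 11.80 and 11.76, and Timm17b at 9.76 and 9.75. Within this complex the differences thus ran from -0.28 to -0.01, with Timm21, Timm50 and Timm23 at one end and the Timm17 paralogues at the other.

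The import motor was the most divided group, with 4 of 6 genes lower and a median of -0.10. Hspa9 encodes the mitochondrial Hsp70 that pulls precursors into the matrix and was at 12.34 in wild type and 12.24 in the transgenic array. Timm44, which tethers it to the channel, was at 8.74 and 8.64. Its ATPase is controlled by the J protein Dnajc19 together with the J-like protein Pam16. Pam16 was at 10.17 and 9.99 and Dnajc19 at 7.50 and 7.55. The nucleotide exchange factors of Hspa9 went in opposite directions. Grpel1 was higher, with 10.06 in wild type and 10.25 in the transgenic array, and Grpel2 was lower, with 9.24 and 8.95. Their differences of 0.19 and -0.29 lay 0.48 apart, the widest gap of the 6 paralogue pairs compared. Over all genes, 81.5% had a lower difference than Grpel1 and 8.69% a lower one than Grpel2.

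The peptidases that remove targeting sequences were all lower. Immp1l, a subunit of the inner membrane peptidase, was at 9.66 in wild type and 9.37 in the transgenic array. The matrix processing peptidase has a recognition subunit, Pmpca, at 11.04 and 10.96, and a catalytic subunit, Pmpcb, at 10.45 and 10.31. The differences of its subunits, -0.08 and -0.14, lay 0.06 apart.

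**Figure D2:**
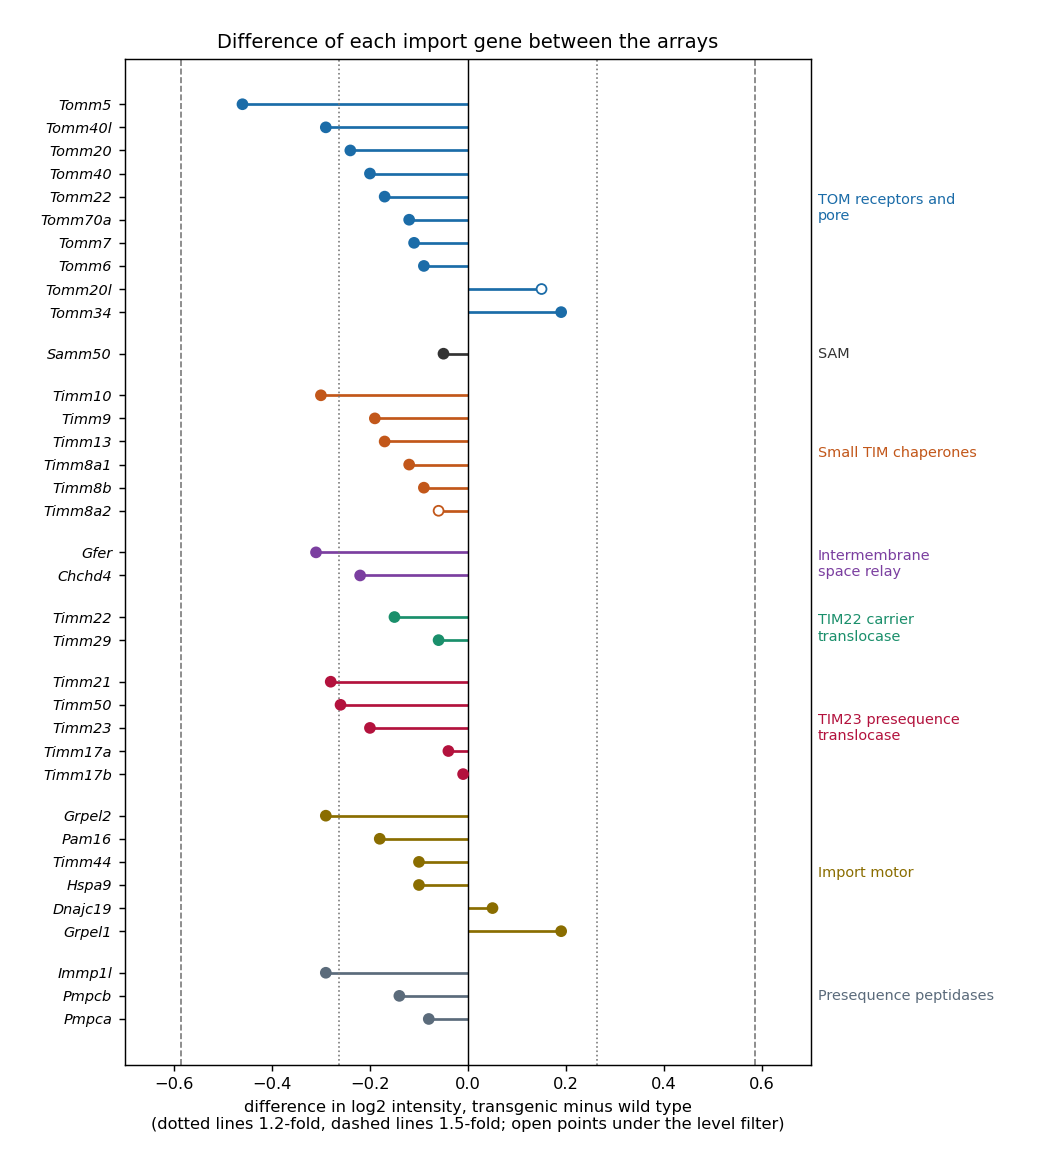
Difference in log2 intensity, transgenic minus wild type (x axis), for each of the 35 import genes, coloured by role; dotted lines mark 1.2-fold, dashed lines 1.5-fold, and open points lie under the level filter. Tomm5 at -0.46 extends farthest, no gene reaches a dashed line, and the points right of 0 are Dnajc19, Tomm20l, Grpel1 and Tomm34.

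Repeat probe sets were the only second reading of a member. For the 5 genes with over 1 probe set, every probe set was lower in the transgenic array. The probe sets of Pam16 gave -0.18 and -0.20, those of Tomm20 -0.24 and -0.20, and those of Timm8a1 -0.12 and -0.19. The 4 probe sets of Timm23 gave -0.20, -0.16, -0.20 and -0.15, and 2 of them held identical values on both arrays. The other 2 were both at 12.43 in wild type, and at 12.27 and 12.28 in the transgenic array. Within each of these pairs the probe sets may not be separate readings. Timm17a gave -0.04 on its brighter probe set and -0.12 on the other, the widest spread of the 5 genes at 0.08. Within a gene the spread had a median of 0.05 over these 5 genes and of 0.12 over all 999 genes with several probe sets. Many import differences are of that size or only somewhat larger, and probe sets of one array do not show how mice vary.

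Some members share genomic ground with other genes, whose signal may not be fully separable. In the RefSeq annotation, which placed 33 of the 35 genes but not Grpel1 and Grpel2, 11 overlapped a protein-coding gene. The share of all genes with such an overlap was not computed, so whether 11 is many cannot be said. Overlap was judged on whole gene spans, without regard to strand, exons or probe positions. Whether any signal is shared was therefore not tested. Timm9 and Tomm20l overlap each other, and their differences of -0.19 and 0.15 had opposite signs. Tomm40l (-0.29) overlaps Apoa2 (0.12) and Nr1i3 (-0.08). Timm21 (-0.28) overlaps Fbxo15 (0.00), and Pam16 (-0.18) overlaps Glis2 (0.00). Timm13 (-0.17) overlaps Tmprss9 (-0.16), Pmpca (-0.08) overlaps Inpp5e (-0.07), and Tomm6 (-0.09) overlaps Frs3 (-0.08), so in these cases both genes had almost the same difference. Timm29 (-0.06) and Yipf2 (0.14) had opposite signs, as did Timm8b (-0.09) and Nkapd1 (0.03), and Dnajc19 (0.05) and Fxr1 (0.16) were both above 0. Nr1i3, Fbxo15 and Tmprss9 lay under the level filter.

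Genes of import and early protein handling outside the rule were mostly lower as well, by less. Of 31 such genes, 24 were lower and 7 higher, with a median of -0.08, and none reached 1.5-fold. The lowest was Mtx1, the SAM component metaxin 1, with 8.80 in wild type and 8.37 in the transgenic array. Its partner Mtx2 differed by -0.25. At 1.2-fold, 6 were lower, among them Bcs1l (-0.38), which inserts a complex III subunit, the matrix protease gene Clpp (-0.32) and the cochaperonin gene Hspe1 (-0.27). The chaperonin gene Hspd1 differed by only -0.08. The highest was Dnaja1, a cytosolic J protein, with 8.57 in wild type and 8.87 in the transgenic array, the 1 gene of the list that was higher by 1.2-fold. The cytosolic chaperone Hspa8 differed by 0.04.

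Other mitochondrial gene families shifted the same way. All 35 measured complex I subunit genes were lower, with a median difference of -0.22, and 44 of 46 genes for subunits of complexes II to V were lower, with a median of -0.15. Of 77 mitochondrial ribosomal protein genes, 69 were lower, with a median of -0.24. At 1.2-fold, 13 of 35 complex I genes, 17 of 46 for complexes II to V and 32 of 77 ribosomal genes were lower. The import genes had 7 of 35 lower by that size, and all genes 11.0%. At 1.5-fold, 2 ribosomal genes and no gene of the other families were lower, beside 1.19% of all genes. Whether the families differ from each other was not tested, since each rests on the same 2 arrays.

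**Figure D3:**
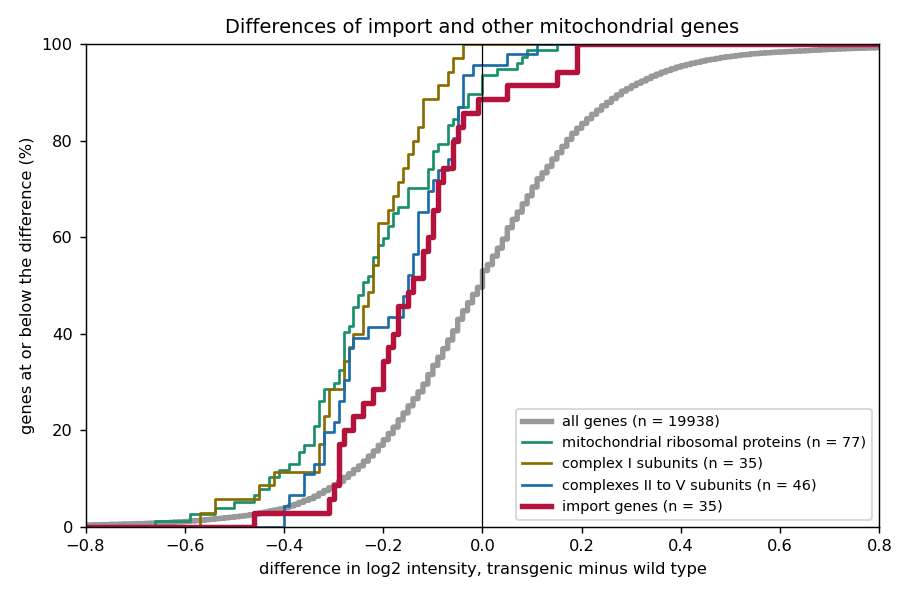
Cumulative share of genes (y axis, %) at or below each difference in log2 intensity, transgenic minus wild type (x axis, shown from -0.8 to 0.8), for import genes, the other mitochondrial families and all genes. The import curve crosses 50% at -0.14, the all-gene curve near 0, and the curves of complex I subunits and mitochondrial ribosomal proteins lie farther left.

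Slow fibre, white adipocyte, Schwann cell and fibroblast markers had medians farther from 0 than the import genes, and muscle fibre, endothelial and macrophage markers had medians closer to 0. All 10 markers of slow fibres, which hold more mitochondria than the fastest fibres, were lower, 9 of them by 1.5-fold, with a median of -0.74. Their log2 levels summed to 124.2 in wild type and 116.5 in the transgenic array. Myl3, a slow myosin light chain, was lowest at -1.02, and Myoz2 highest at -0.42. The 9 measured white adipocyte markers were all higher, 7 by 1.5-fold, with a median of 1.15, and their log2 levels summed to 66.03 and 78.80. Lep, the hormone leptin, was highest at 3.20, and Pparg lowest at 0.44. Of 8 fibroblast markers 7 were higher (median 0.21, sums 75.95 and 78.40), from Thy1 at -0.15 to Lum at 0.74, and the 5 Schwann cell markers were all higher (median 0.40, sums 37.63 and 40.01), from Sox10 at 0.09 to Egr2 at 1.08. Endothelial markers had a median of 0.01 over 6 genes (sums 57.55 and 57.24), from Kdr at -0.44 to Vwf at 0.32. Macrophage markers had a median of 0.09 over 7 genes (sums 51.39 and 51.95), from Adgre1 at -0.12 to Mrc1 at 0.24. The muscle fibre markers had a median of 0.02 over 10 genes (sums 140.5 and 140.9), from Actn3 at -0.06 to Des at 0.18. That list includes the fast fibre genes Mylpf, Tnnt3, Actn3, Pvalb, Myh4 and Tnnc2, so its median is not one of all fibre types. No marker was at 0 in either array, which does not show detection, because RMA gives no such call. S100b, Adgre1, Cd14 and Cd163 lay under the level filter. The part of fibre type and of other cells in the import differences was not tested.

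**Figure D4:**
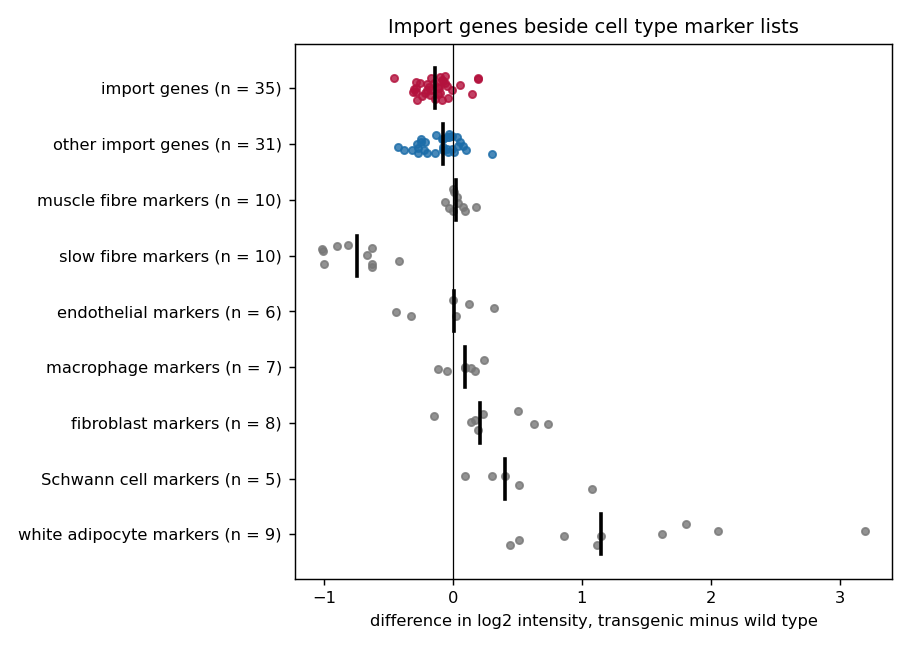
Difference in log2 intensity, transgenic minus wild type (x axis), of each import gene, each further gene of import and each cell type marker, with a black bar at the median of each list. Import genes (median -0.14) lie between the slow fibre markers (-0.74) and the muscle fibre markers (0.02), and white adipocyte markers lie farthest right (1.15).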

How the data were processed

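RNA of hindlimb muscle was read on 1 array per genotype, from 100 ng of RNA per the labels' protocols. The authors deposited log2 intensities after RMA in Partek, per the submitters' processing notes; the versions were not given in the sources used here. In general, RMA subtracts background, quantile normalizes and summarises probes robustly. It compresses ratios and gives no call of detection.

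Gene names came from the platform annotation; all 35 member symbols were found in RefSeq (GRCm38.p6). A gene is represented by its brightest probe set, taken over the mean of the arrays. The level filter of 6.79 is the median over genes of the higher value of both arrays; 33 members passed, but all 35 enter every count. Nothing was tested, because each group is 1 array whose number limits the precision. The members were defined by symbol alone, but they, the gene lists and the alternatives were chosen with earlier results of these data known. Members with the 6 lowest and highest differences, paralogue pairs, repeat probe sets and each role's ends were named by rule. Apoa2, Nr1i3, Fbxo15, Glis2, Tmprss9, Inpp5e, Frs3, Yipf2, Nkapd1 and Fxr1, and genes between the ends of the list of further import genes, were chosen after their values were seen. Alternatives were filters, averaged probe sets, thresholds, centring, loess (statsmodels 0.14.6, span 0.3) and a further quantile step. The steps were tested on simulated data.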

Additional observations from a re-analysis of the deposited data

How the results depend on the processing

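The direction of the import genes held under every alternative tried. The count of lower genes was 31 of 35 with averaged probe sets, loess and repeated quantile normalization. Median centring could change nothing, because the median of all genes was already 0.0. The count was 30 of 33 with the level filter, 30 of 34 with the olfactory receptor filter and 26 of 30 among genes with 1 probe set. It was 23 when at least 0.1 was required. Of all genes past the level filter, 44.2% were lower, with a median of 0.03. The median difference was -0.15 with the level filter and with averaged probe sets, -0.13 among genes with 1 probe set, -0.15 after loess and -0.16 after repeated quantile normalization, which moved the median of all genes to -0.03 and the share of all genes lower to 55.4%. Dnajc19, Grpel1, Tomm20l and Tomm34 were above 0 under each of these scalings. No gene reached 1.5-fold under any scaling or filter; at 1.2-fold 7 were lower. No paired analysis was possible because each group has 1 array. Proteins of the members were not used here, so paralogue identities and the cysteine motif of the small TIM chaperones were not computed. Each genotype has a single array, and differences near 0.1 are the size of the spread between probe sets of one gene.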
